A study of Drosophila melanogaster with 4 samples.

Results

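H3K79me1 was examined at 8 developmental genes of chromosome arm 2L in head nuclei of adult Drosophila melanogaster. Of these, 7 encode transcription factors or other nuclear regulators and 1, wg, encodes a Wnt ligand. The genes lie in 5 windows on FlyBase release 5, named here by their genes. The windows run from 11350000 to 11460000 for salm and salr, from 12590000 to 12690000 for nub and pdm2, from 3820000 to 3845000 for slp1 and slp2, from 7295000 to 7325000 for wg, and from 16460000 to 16490000 for dac. Together they span 295 kb of the 23011544 bp of 2L, and hold 8 of 3508 genes that the RefSeq gene table of release 6 lists on this arm. Gene models of release 5 were not used here, so the genes stand for whole windows and no region is placed in an exon, an intron or a promoter. The windows were chosen by the regions listed in them: they were picked with these 3 lists in view, as places with few regions. Their own coverage is therefore a description and carries no test.

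All flies were adults of mixed stage and of the wild-type strain Oregon-R, with no transgene, treatment or mutant group. Heads were collected from whole flies with sieves, so nuclei of eye, brain and other head tissues were measured together. There were 2 ChIP libraries, made with lot 1 of an Abcam antibody against H3K79me1, and 2 input libraries of genomic DNA. What is analysed are 3 lists of regions that the authors found significantly enriched, 1 for each ChIP replicate and 1 for the combined replicates, and each region has a score that was read here as log2. Library depth is unknown from these lists, which held 7603, 8137 and 12942 regions. On 2L they held 1358, 1461 and 2454 regions and covered 16.9%, 18.2% and 33.7% of the arm. The labels do not say that the replicates came from separate collections, so their spread may be technical. Fewer cells carrying a mark and less of the mark per cell cannot be told apart in such bulk chromatin.

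H3K79me1 is the first methylation step on a lysine in the globular core of histone H3. Dot1-family enzymes place it, in flies the product of grappa, and it typically marks the bodies of genes that are being transcribed. The 8 genes are known as patterning regulators that are active in restricted sets of cells. salm and salr encode the paired Spalt zinc-finger factors of wing patterning and photoreceptor specification. nub and pdm2 encode neighbouring POU-homeodomain factors of wing and neuroblast development. slp1 and slp2 encode forkhead factors of embryonic segmentation that also act in a neuroblast temporal series. wg encodes a secreted Wnt ligand, and dac encodes a nuclear factor of the retinal determination network that also acts in mushroom body neurons. Loci such as wg and dac are well-known targets of Polycomb-group repressors in flies. Polycomb marks were not measured here.

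**Figure D1:**
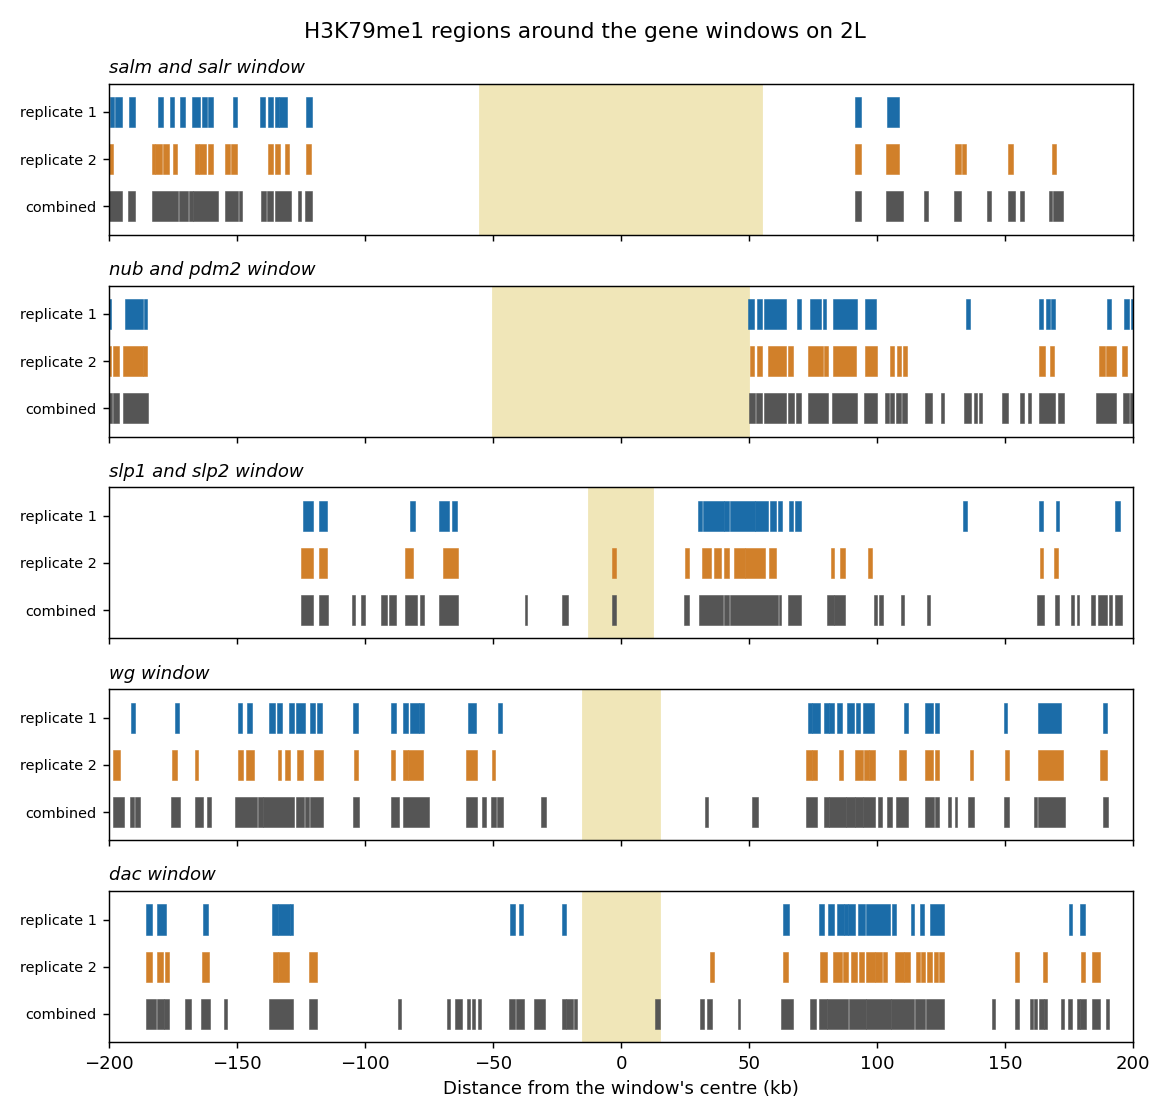
H3K79me1 regions (coloured blocks) of the replicate 1, replicate 2 and combined lists, plotted by distance in kb from the centre of each gene window (shaded). The salm and salr window lies inside a long empty stretch in all 3 lists, and the nub and pdm2 window is empty up to a block of regions at its right edge. The shorter slp1 and slp2, wg and dac windows have regions on both sides. Closely spaced blocks of regions lie some distance after the slp1 and slp2 window and after the dac window.

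The 5 windows were nearly free of H3K79me1 regions. In replicate 1, 4 of 5 windows held no base of a region, as did 4 of 5 in ChIP replicate 2, and 2 of 5 in the combined list. The regions covered 379 bp of the windows in ChIP replicate 1, 1665 bp in ChIP replicate 2, and 3639 bp in the combined list. These lengths were 0.128%, 0.564% and 1.23% of the windows' length. The replicate mean was 0.346% ± 0.308 (SD, n = 2), against 17.6% ± 0.937 (SD, n = 2) for the whole of 2L. Counted as regions with at least 1 base inside, there was 1 in ChIP replicate 1, 1 in ChIP replicate 2, and 3 in the combined list. Only salm with salr, and wg, were empty in all 3 lists. How uncommon an empty window was depended on its length. For the 110 kb of salm and salr, 2L was tiled with 209 adjoining windows of the same length. Of these, 6.70% held no region in ChIP replicate 1, 5.26% in ChIP replicate 2, and 3.35% in the combined list. For the 100 kb of nub and pdm2, 8.70% of 230 windows were empty in ChIP replicate 1, 8.70% in ChIP replicate 2, and 4.35% in the combined list. Empty windows of the shorter lengths were common. At the 25 kb of slp1 and slp2, 34.2%, 30.2% and 16.0% of 920 windows held no region in ChIP replicate 1, replicate 2 and the combined list. At the 30 kb of wg and dac, the shares of 767 windows were 29.5%, 27.8% and 14.6% in the same order. A single empty window of 25 or 30 kb was thus an ordinary sight on 2L, whereas few windows of 100 kb or more were empty.

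**Figure D2:**
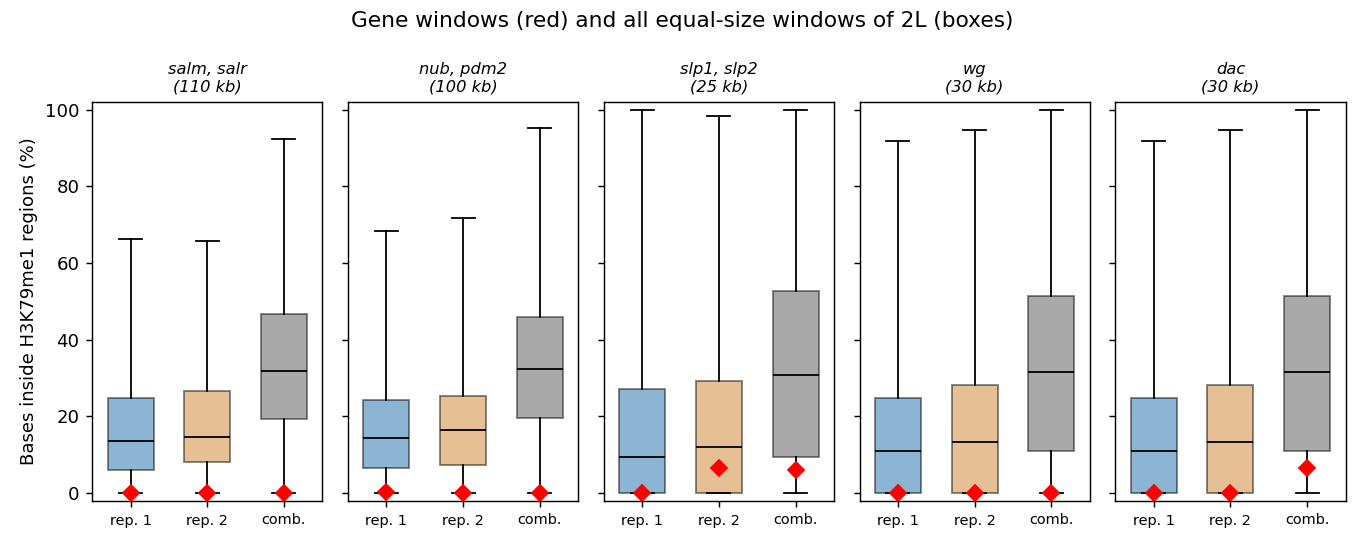
Share of bases inside H3K79me1 regions in each gene window (red diamonds) and in all adjoining windows of the same length on 2L, for replicate 1, replicate 2 and the combined list (boxes, 25th to 75th percentile with the median; whiskers, lowest to highest). At 100 and 110 kb the gene windows lie below the boxes, and at 25 and 30 kb the boxes of the replicate lists reach down to 0.

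The Spalt genes lay in the middle of a long stretch without a listed H3K79me1 region. salm (locus tag Dmel_CG6464) and salr (Dmel_CG4881) are neighbouring protein-coding genes in the release 6 gene order. Their window had 0% coverage in ChIP replicate 1, in ChIP replicate 2, and in the combined list. The median window of 110 kb was covered to 13.7%, 14.8% and 31.8% in these lists. The empty stretch ran from 11284067 to 11496362 in ChIP replicate 1, from 11283794 to 11496477 in ChIP replicate 2, and from 11284131 to 11496355 in the combined list. It was 212 kb long in ChIP replicate 1, 213 kb in ChIP replicate 2, and 212 kb in the combined list. The replicates placed its ends within 273 bp and 115 bp of each other. By length it ranked 8th of 1358 region-free stretches of 2L in ChIP replicate 1, 5th of 1462 in ChIP replicate 2, and 3rd of 2455 in the combined list.

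The regions that bounded the Spalt stretch were found in every list. On the side of lower coordinates the nearest region ended 65.9 kb before the window in ChIP replicate 1, 66.2 kb in ChIP replicate 2, and 65.9 kb in the combined list. On the other side the nearest region began 36.4 kb, 36.5 kb and 36.4 kb after the window. That region was 2153, 2392 and 2381 bp wide, with log2 scores of 0.66, 0.75 and 0.68 in the 3 lists. A wider and higher-scoring region followed, from 11508668 to 11513451 in ChIP replicate 1, with a log2 score of 0.97, above 95.7% of that list. Its counterpart in ChIP replicate 2, from 11508454 to 11513606, scored 0.95, above 97.5% of its list. A high-scoring region was thus found beyond the later end of the stretch in both replicates. That none lay within the stretch follows from how a stretch is defined. The nearest region on the side of lower coordinates scored above 32.9% of the list in ChIP replicate 1 and 23.0% in ChIP replicate 2.

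The POU genes lay against one end of an even longer stretch. nub (Dmel_CG34395) and pdm2 (Dmel_CG12287) are separated by Ref2 in the release 6 order of protein-coding genes. Replicate 1 covered 379 bp of their window, or 0.379%, replicate 2 covered none and the combined list covered 157 bp, or 0.157%. The median window of 100 kb was covered to 14.4%, 16.4% and 32.4%. The empty stretch ran from 12454869 to 12689621 in ChIP replicate 1 (235 kb), from 12454895 to 12690176 in ChIP replicate 2 (235 kb) and from 12455115 to 12689843 in the combined list (235 kb). Its ends differed by 26 bp and 555 bp between the replicates. It ranked 6th by length in ChIP replicate 1, 4th in ChIP replicate 2, and 2nd in the combined list. Only 1 stretch of 2L was longer in the combined list, at 256 kb near the centromere, from 22478669 to 22734943.

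The few covered bases of the nub and pdm2 window came from a region that crossed its right edge. It ran from 12689622 to 12691732 in ChIP replicate 1 (log2 score 0.71) and from 12689844 to 12692098 in the combined list (0.43). In replicate 2 the corresponding region, from 12690177 to 12692072 (0.50), began just outside, with 176 bp between it and the window. Whether this window held a region was thus set by the place of its edge. Past the edge, regions followed closely. The first 10 kb after the window were covered to 79.1% in ChIP replicate 1, 68.0% in ChIP replicate 2, and 85.8% in the combined list. A region of 9.45 kb, from 12722554 to 12732000, had a log2 score of 1.15 in ChIP replicate 1, above 99.2% of the list. In replicate 2 it ran from 12722616 to 12731868 and scored 1.00, above 98.6% of the list. Before the window, the whole 100 kb were empty in all 3 lists.

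The slp1 and slp2 window held a narrow region in 1 replicate. slp1 (Dmel_CG16738) and slp2 (Dmel_CG2939) are also direct neighbours in the release 6 order. Replicate 1 listed nothing in their 25 kb. Replicate 2 listed 1665 bp, from 3828728 to 3830392, or 6.66% of the window. The combined list placed 1539 bp there, from 3828768 to 3830306, or 6.16%. The region began 8729 bases into the window and scored low. Its log2 score was 0.46 in ChIP replicate 2, where 7.45% of regions scored lower, and 0.40 in the combined list, where 27.8% did. The mean coverage was 3.33% ± 4.71 (SD, n = 2), with all of the coverage in ChIP replicate 2. In replicate 2, 39.3% of the 25 kb windows had this coverage or less, and in the combined list 21.0% did.

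The stretch around the slp genes depended on the list. Replicate 1 had no region from 3768527 to 3862635 (94.1 kb, rank 28). In replicate 2 the region inside the window cut this short, and the longest empty stretch with a base in the window ran from 3768593 to 3828727 (60.1 kb, rank 60). In the combined list the longest such stretch lay on the other side of the region in the window, from 3830307 to 3857137 (26.8 kb, rank 107). It shared no base with the stretch taken in replicate 2. The replicate 2 stretch held 34.9% of the window and the combined one 58.8%, so their lengths are not comparable. On that other side, replicate 2 listed no region between 3830392 and 3857237. The replicates placed the left end of their stretches within 66 bp of each other. The combined list added a region 8.29 kb before the window, from 3809372 to 3811708, with a log2 score of 0.29, under which only 2.51% of that list lay.

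The wg window was empty in all 3 lists. In the release 6 order wg (Dmel_CG4889) is followed by Wnt6, another Wnt ligand gene, for which no value is given because its place on release 5 was not used here. The 30 kb of the wg window held 0 bp of regions in ChIP replicate 1, in ChIP replicate 2, and in the combined list, against medians of 11.0%, 13.3% and 31.5% for windows of this length. As 29.5%, 27.8% and 14.6% of such windows were empty, this does not set wg apart. Because the window was chosen for having few regions, the length of the empty stretch does not either. On 2L, 25 stretches in each replicate list were at least 100 kb long, and 39 in the combined list were at least 50 kb long. The stretch around wg was longer than its window. It ran from 7263472 to 7383051 in ChIP replicate 1 (120 kb, rank 21), from 7260880 to 7382376 in ChIP replicate 2 (121 kb, rank 20) and from 7280579 to 7342667 in the combined list (62.1 kb, rank 30). The replicates shared 119 kb of it. The combined list shortened it with regions 14.4 kb before and 17.7 kb after the window that had no counterpart in either replicate list. The later of these was only 1149 bp wide, narrower than any region of the replicate lists, which start at 1301 bp. Its log2 score of 0.63 was above 87.5% of the combined list.

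The dac window was empty in both replicates but not in the combined list. dac (Dmel_CG4952) lies between Idgf3 and Nepl8 in the release 6 order. Replicate 1 and replicate 2 listed 0 bp in its 30 kb. The combined list placed a region from 16488058 to 16490204 at the right edge, with 1943 bp inside the window, or 6.48% of it, and 204 bp outside. That region was 2147 bp wide, above the narrowest replicate region, and scored 0.44, above 44.4% of the combined list. It had no base in either replicate list. In the combined list 18.3% of the 30 kb windows had this coverage or less.

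At dac the replicates placed the start of the empty stretch farther apart than at the other windows. The empty stretch ran from 16453297 to 16538361 in ChIP replicate 1 (85.1 kb, rank 34) and from 16355992 to 16509764 in ChIP replicate 2 (154 kb, rank 15). Its ends differed by 97.3 kb and 28.6 kb, and the replicates shared 56.5 kb. Replicate 1 listed 3 regions in the 100 kb before the window, the nearest ending 6.70 kb from it. Replicate 2 listed none there. The combined list had 12 regions in those 100 kb, and its empty stretch at dac, from 16457645 to 16488057, was 30.4 kb (rank 91). Whether dac lay in a long empty domain or in a short gap was thus not the same in the 3 lists.

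**Figure D3:**
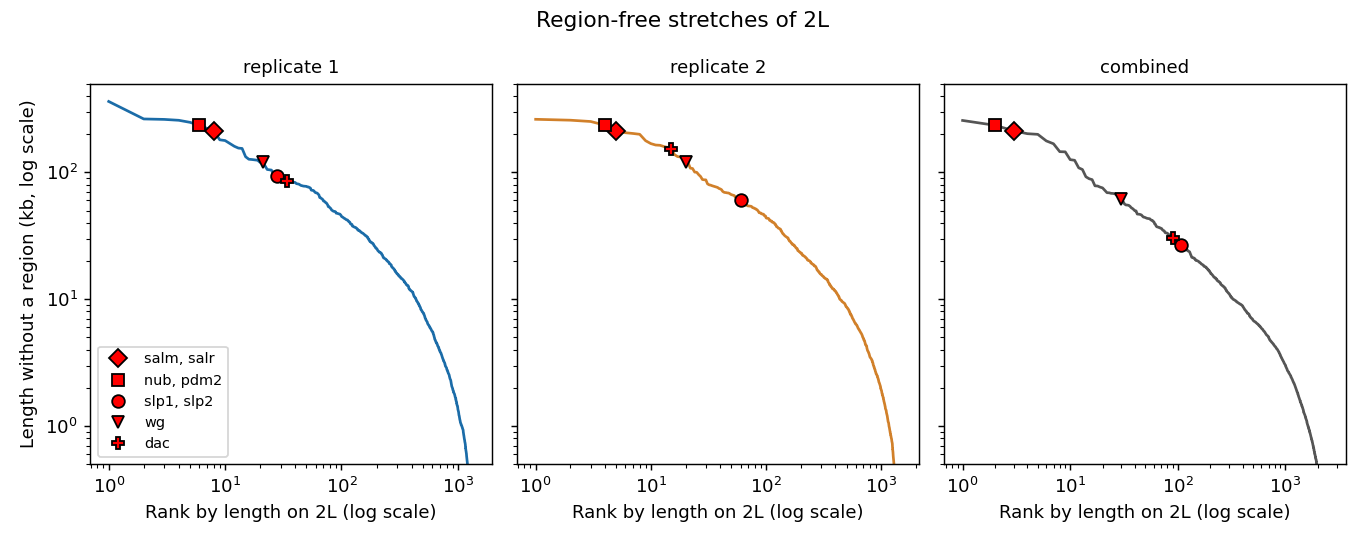
Lengths of all region-free stretches of 2L in kb against their rank from longest to shortest (lines, both axes on log scales) for replicate 1, replicate 2 and the combined list, with the stretches at the gene windows marked in red. The nub and pdm2 stretch and the salm and salr stretch lie among the 8 longest in each list, and those of slp1 and slp2, wg and dac lie farther down, at ranks 15 to 107.

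The length and the constancy of the empty stretch differed between the windows. Both are partly set by the choice of the windows, since an empty window of 100 or 110 kb must lie in a stretch of at least that length. At salm with salr, and at nub with pdm2, it exceeded 200 kb and had nearly the same ends in all 3 lists. These are also 2 of the 13 stretches of at least 100 kb on 2L in the combined list, where the median stretch was 2.09 kb. At slp1 with slp2, wg and dac the length ranged from 26.8 to 154 kb. It was shorter in the combined list than in either replicate at wg and at dac. At slp1 with slp2 the stretches of replicate 2 and the combined list share no base, so their lengths are not comparable.

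The surroundings of the windows were not empty. The 100 kb on both sides of the 5 windows were covered to 16.4% in ChIP replicate 1, 16.4% in ChIP replicate 2, and 30.3% in the combined list (replicate mean 16.4% ± 0.0255, SD, n = 2), close to the values for all of 2L. The single windows did not agree as closely as this sum. Around salm and salr coverage was 11.0% ± 2.34 (SD, n = 2), and around slp1 and slp2 it was 20.0% ± 0.902 (SD, n = 2). The other windows lay between these. Within 10 kb of the windows, 8 of 10 sides were empty in ChIP replicate 1, 9 of 10 in ChIP replicate 2, and 6 of 10 in the combined list. Over 2L as a whole, 52.6%, 49.0% and 28.8% of 2301 windows of 10 kb held no region in these lists. As the windows were chosen for being empty, their edges share in that choice.

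Over 100 kb, coverage differed between the sides at 3 of the 5 windows. After nub and pdm2 it was 35.0% in ChIP replicate 1, 39.1% in ChIP replicate 2, and 56.7% in the combined list, and before them it was 0% in each. After slp1 and slp2 it was 33.6%, 29.7% and 49.7%, and before them 7.61%, 8.94% and 24.7%. After dac it was 28.0%, 29.2% and 48.8%, and before it 4.70%, 0% and 23.1%. At these 3 windows the 100 kb of higher coordinates were the more covered in every list, by more than the spread between the replicates. Over 50 kb this held at nub with pdm2 and at slp1 with slp2, but not at dac. There the 50 kb before the window were covered to 9.40% in ChIP replicate 1, 0% in ChIP replicate 2, and 41.4% in the combined list, against 3.28%, 6.78% and 14.1% after it. At wg the 100 kb sides had 16.0% ± 0.549 before and 17.8% ± 4.08 after (SD, n = 2), a difference smaller than the replicate spread of the later side. At salm and salr they were 11.9% ± 0.0311 before and 10.2% ± 4.65 after (SD, n = 2), a difference smaller than the spread between replicates. The direction over 100 kb at wg and at salm with salr also changed with the replicate. Over 50 kb the earlier side of wg was the more covered, with 10.2%, 11.2% and 22.9% before and 0%, 0% and 6.88% after, and at salm with salr the earlier side was empty and the later one was covered to 6.97%, 7.88% and 7.92%.

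**Figure D4:**
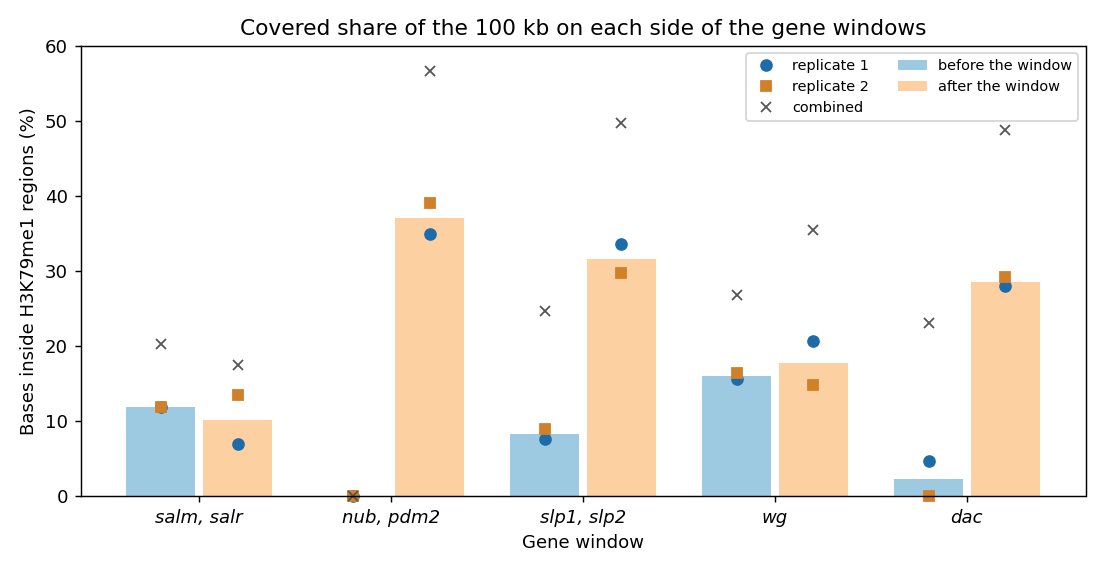
Share of bases inside H3K79me1 regions in the 100 kb before (blue bars) and after (orange bars) each gene window, before meaning lower coordinates. Bars are means of the 2 replicate lists, and points give replicate 1, replicate 2 and the combined list. Over this length the later side is the more covered one at nub and pdm2, slp1 and slp2, and dac in all 3 lists; over 50 kb this does not hold at dac.

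The regions next to the windows included both weak and strong ones. The widest in the surrounding 100 kb was a combined region of 18.6 kb after the slp genes, from 3875032 to 3893602, with a log2 score of 0.72, above 94.0% of the list. Replicate 1 split this span into several regions, of which the widest was 9.49 kb with a score of 0.88. After dac the widest region of the combined list was 9.76 kb, from 16570574 to 16580334, with a score of 0.62. Replicate 1 listed a region of 9.35 kb at nearly the same place. Replicate 2 split this span into several closely spaced regions, of which the widest was 3.58 kb. Of the 95 combined regions in the windows and their surroundings, 33 (34.7%) had a base in both replicate lists and 39 (41.1%) in neither. Over all of 2L the shares were 31.7% and 40.7% of 2454 regions. The regions around these genes were thus called in the replicates about as often as elsewhere on the arm. Among the windows, the share in neither replicate was 54.2% at dac and 47.6% at slp1 and slp2, and between 30.8% and 33.3% at the others.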

How the data were processed

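H3K79me1 ChIP-seq of adult fly heads was analysed from region lists of 2 ChIP replicates and of both combined. The submitters' processing notes name Bowtie 0.12.7 as the aligner, and the file headers name FlyBase release 5 as the build. How regions were called, at which threshold, and how replicates were combined is not given in the sources used here. Input libraries enter only through the authors' calls. The authors deposited a score with each region, without a stated unit, which was read here as a log2 value. The reason was that 2 raised to the difference from the list's most frequent score gave a ratio of whole numbers (denominator up to 5000, relative tolerance 1e-11) for 99.3%, 99.9% and 96.9% of regions in replicate 1, replicate 2 and the combined list, against at most 1.18% on other log scales. Scores only describe or rank regions within a list. The 1 region named as depleted was left out.

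Covered shares, region-free stretches, flanks of 100 kb and windows of the gene windows' lengths, tiled from the first base of 2L, were computed with Python 3.11.15 and numpy 2.4.6, and drawn with matplotlib 3.10.9. The routines were tested on simulated lists with planted stretches. At a window crossed by regions, the longest stretch with a base in the window was taken. All regions with a base in a window and the nearest on each side could be named. Of the other regions, the widest within 100 kb, the one of 9.45 kb after nub and pdm2 and the second one after salm and salr were chosen after their values were seen. No test was run, since the windows, members and gene list were chosen with earlier results of these data known and there were 2 replicates. The other developmental genes listed for comparison were not analysed, for want of release 5 gene models. Gene order came from the RefSeq gene table of release 6, whose coordinates were not used. Every comparison with 2L includes the gene windows themselves.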

Additional observations from a re-analysis of the deposited data

How the results depend on the processing

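The 5 windows together were covered to 0.346% as the replicate mean, 0.564% without replicate 1, 0.128% without replicate 2 and 0.0642% with the higher-scoring 50% of regions. Merging within 1000 bp left it at 0.346%, and windows narrowed by 5 kb gave 0.340%. It was 1.23% in the combined list, 0% for bases inside both replicate lists and 2.31% with windows widened by 10 kb, which takes in the regions after nub and pdm2. The flanks, at 16.4%, were covered to 30.3% in the combined list, 9.87% for the higher-scoring 50% of regions, 17.2% after merging, 11.4% for bases in both lists and 15.0% with flanks of 50 kb. At dac, flanks of 50 kb had replicate means of 4.70% before and 5.03% after, but the replicates went opposite ways. The combined list had 41.4% before dac and 14.1% after it. At wg, flanks of 50 kb had replicate means of 10.7% before and 0% after. The 3 regions of the combined list inside the windows became 1 in each replicate list and 0 among the higher-scoring 50%. Stretches taken from the replicate 1 list, the replicate 2 list and the higher-scoring 50% of combined regions, in place of the combined list, were 94.1, 60.1 and 94.0 kb at slp1 and slp2, 120, 121 and 78.98 kb at wg, and 85.1, 154 and 104 kb at dac. With regions of at least 2000 bp alone they were 51.0 kb at slp1 and slp2 and 97.4 kb at wg. At slp1 and slp2 the replicate 2 and combined stretches lie on opposite sides of the region in the window. The long stretches moved little, to 213 kb in replicate 2 at salm and salr, and to 235 kb in replicate 2 and 241 kb for higher-scoring regions at nub and pdm2. Empty windows of 25, 30, 100 and 110 kb made up 34.2%, 29.5%, 8.70% and 6.70% in replicate 1, 30.2%, 27.8%, 8.70% and 5.26% in replicate 2, and 12.9%, 11.9%, 2.42% and 2.13% of the combined list without the last 10% of 2L, next to the centromere. Windows started at another point gave 13.2% at 30 kb, and 3.49% or, every 1000 bp, 3.94% at 100 kb. No cause was tested. ChIP and input libraries carry the same replicate numbers, but the labels do not say that equal numbers share chromatin. No paired analysis was possible because no value was listed for either input library. Unknown depth limits every comparison between lists: an empty window says that no region was listed there, not that the mark was absent.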
